A study of Mus musculus with 9 samples.

Results

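The 8 genes of insulin signalling and glucose uptake were followed across primary cultures of mouse brown fat: the receptor Insr, the adaptors Irs1 and Irs2, the kinase subunit Pik3r1, the kinase Akt2, the traffic regulator Tbc1d4 and the glucose transporters Slc2a4 and Slc2a1. They are 8 of 19858 genes with a probe set of their own, each read from its brightest such probe set, and all 8 were among the 13335 genes bright enough to test. The rule lists them by name and uses no measured value, but the list was drawn up with earlier results of these data known.

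The cells came from interscapular brown fat of male C57BL/6 mice aged 5 weeks, from which a fraction enriched in precursors was plated and kept for 9 days in vitro. Subjects 7 to 9 gave 3 cultures with lysophosphatidic acid (LPA, the 1-oleoyl form) at 5 µM, subjects 4 to 6 gave 3 with 2.5 µM HA155, and subjects 1 to 3 gave 3 with the DMSO vehicle as control. LPA is a signalling lipid that the secreted enzyme autotaxin makes, and HA155 is an inhibitor of autotaxin. Every culture of all 3 groups also received insulin, at 50 nM from day 1, 100 nM from day 5 and 200 nM from day 7, so no culture shows these genes without insulin. The series design places the compounds during differentiation, whereas the labels place them at 9 days in vitro, and how long the cells were exposed remains unsettled. The labels do not say whether a subject is 1 mouse or a pool, and p-values measure the spread between these cultures.

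Insulin binds its receptor, a tyrosine kinase that phosphorylates the IRS adaptors, and these recruit the p85-p110 phosphoinositide 3-kinase. Its lipid product brings Akt to the membrane, where Akt2 phosphorylates TBC1D4 (AS160) and so lifts a brake on the storage vesicles that carry the transporter GLUT4, the product of Slc2a4. In brown fat this pathway drives glucose uptake and lipid storage, while GLUT1, the product of Slc2a1, takes up glucose in most cells without waiting for insulin.

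RNA was measured on 9 Affymetrix mouse gene arrays, whose median intensity ran from 70.7 to 72.8. The number of arrays limits the precision: with 6 residual degrees of freedom the standard error of a log2 change was 0.08 at the median gene. On the first principal component, with 66.7% of the variance, the LPA arrays lay at 19.6 to 28.7 and the other 6 at -15.5 to -7.28. Across all genes tested the median log2 change was 0.01 for LPA and 0.00 for HA155, each against control, and 0.01 between LPA and HA155. Adipocyte markers were bright in every group, while the brown markers Ucp1, Cidea, Dio2 and Elovl3 lay below the intensity of 48.2 required for a test, so 4 of the 10 brown markers listed, Ucp1 among them, gave no usable level in these cultures.

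With LPA, 5 of the 8 genes fell against control, 1 rose and 2 did not pass the test. Slc2a4 fell most, 3.83-fold, followed by Tbc1d4 (1.95-fold), Insr (1.53-fold), Akt2 (1.44-fold) and Pik3r1, while Slc2a1 rose a little and the adaptors Irs1 and Irs2 did not pass. Among all 13335 genes 23.0% passed in this comparison, 12.2% higher and 10.8% lower, at a Benjamini-Hochberg adjusted p below 0.05 in limma, and 34.3% were at an unadjusted p below 0.05. The median change of the 8 genes was -0.38 on the log2 scale, over a range of -1.94 to 0.28. In 5 of the 8 all LPA arrays lay below all controls, where 33.1% of all genes did not overlap in either direction. With HA155, none of the 8 passed against control, where 1.03% of all genes did (0.607% higher, 0.427% lower).

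**Figure D1:**
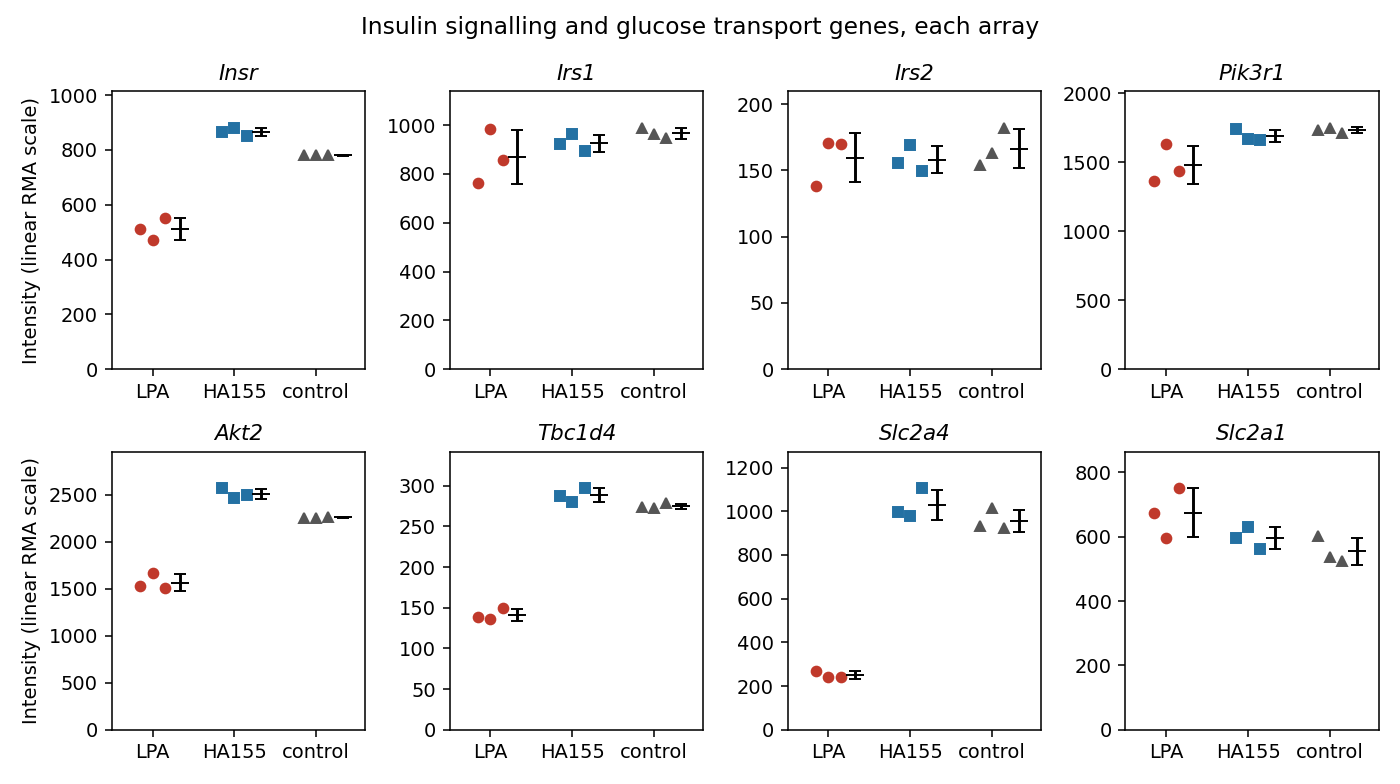
Deposited intensity (linear axis from 0) of the 8 genes on each of the 9 arrays, with points for arrays and, beside them, the group mean with bars of 1 SD (n = 3). Slc2a4 lay at 239.7 to 269.8 on the LPA arrays, apart from 922 to 1106 on the other 6, whereas Irs1 and Irs2 overlapped between the groups.

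At the head of the pathway, Insr, on chromosome 8, read 513, 473 and 552 on the LPA arrays, 866, 881 and 849.9 on the HA155 arrays and 779.8, 779.8 and 782 on the control arrays. All 3 LPA arrays lay below every other array and all 3 HA155 arrays above every other array. The mean was 512.6 ± 39.9 with LPA and 780.4 ± 1.0 in controls (SD, n = 3 each), a log2 change of -0.61 (SE 0.06, 95% interval -0.75 to -0.47; limma adjusted p = 5.22e-05). Control arrays 1 and 2 hold the same value here, which understates the spread of that group. The gene's other probe set gave 301 to 380 with LPA, 461 to 476 with HA155 and 438 to 461 in controls. Its change with LPA against control was smaller, -0.39 (limma adjusted p = 0.0123).

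The adaptors carry the signal from the receptor to the lipid kinase. Irs1, on chromosome 1, read 763, 983 and 858 with LPA, 922, 963 and 894 with HA155 and 989, 962 and 946 in controls. LPA array 8 lay among the controls and the other LPA arrays below them, and the log2 change was -0.16 (95% interval -0.35 to 0.02; limma adjusted p = 0.204). Without LPA array 8 it was -0.25 and passed (limma adjusted p = 0.0191). With all arrays kept it passed with array weights (-0.24, adjusted p = 0.0481) and with the mean of the gene's probe sets (-0.23, adjusted p = 0.0260). The call thus depends on that array, on the weighting and on the choice of probe set. The gene's other probe set was below the level required for a test, at 36.5 to 46.4 with LPA, 34.6 to 41.0 with HA155 and 46.3 to 56.8 in controls.

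Irs2, on chromosome 8, read 138, 170.4 and 170.2 with LPA, 155, 169 and 149 with HA155 and 154, 163 and 182 in controls. The 3 groups overlapped fully, and the log2 change with LPA against control was -0.06 (95% interval -0.27 to 0.15; limma adjusted p = 0.690). The interval leaves room for a change of up to 0.27 downwards, so a small shift was not detectable with 3 arrays. Within each array the log2 of Irs1 over Irs2 averaged 2.44 ± 0.10 with LPA, 2.55 ± 0.04 with HA155 and 2.54 ± 0.16 in controls (SD, n = 3 each). Only the differences of this quantity between groups can be read, since probe sets differ in brightness. They were -0.10 for LPA against control (exact two-sided permutation p = 0.4, adjusted 0.6 over 3 comparisons), 0.01 for HA155 against control (exact p = 0.8, adjusted 0.8) and -0.11 for LPA against HA155 (exact p = 0.2, adjusted 0.6).

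Pik3r1, on chromosome 13, encodes p85 alpha, the regulatory subunit that docks the lipid kinase on the adaptors. It read 1366, 1629.8 and 1440.0 with LPA, 1741, 1666 and 1662 with HA155 and 1734, 1751 and 1709 in controls. All LPA arrays lay below all others, though LPA array 8 came close. The log2 change was -0.23 against control (SE 0.07, 95% interval -0.38 to -0.08; limma adjusted p = 0.0327). This call was lost in 10 of 18 alternative settings, 8 of which leave out an array, any one but LPA array 8 (adjusted p up to 0.0965, log2 change -0.30 to -0.18).

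The kinase Akt2, on chromosome 7, is the Akt form most tied to glucose uptake in fat and muscle. Its intensity was 1527, 1665 and 1502 with LPA, 2568, 2462 and 2491 with HA155 and 2254, 2254 and 2263 in controls, so the 3 groups were ordered with no overlap. Means were 1564.9 ± 87.9 with LPA and 2256.7 ± 5.2 in controls (SD, n = 3 each), a log2 change of -0.53 (SE 0.06, 95% interval -0.66 to -0.40; limma adjusted p = 6.81e-05). Control arrays 1 and 2 again share a value. A different probe set of the gene read 1499 to 1626 with LPA, 2399 to 2505 with HA155 and 2132 to 2170 in controls (LPA against control -0.47, limma adjusted p = 0.000567).

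Tbc1d4, on chromosome 14, encodes the Rab GTPase-activating protein that Akt2 switches off. It read 138, 136 and 150.0 with LPA, 287, 280.2 and 297 with HA155 and 273, 272 and 278 in controls. Every LPA array was near one level and every other array near a much higher one. The mean was 141.2 ± 7.7 with LPA and 274.7 ± 3.3 in controls (SD, n = 3 each), a log2 change of -0.96 (SE 0.06, 95% interval -1.09 to -0.83; limma adjusted p = 1.24e-06). It was the gene with the 146th lowest change among the 13335.

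The transporters passed the test in opposite directions. Slc2a4, on chromosome 11, read 269.8, 240.4 and 239.7 with LPA, 999, 980.1 and 1106 with HA155 and 932, 1016 and 922 in controls. The LPA arrays were far below both other groups, which overlapped each other. Means were 250.0 ± 17.2 with LPA and 956.8 ± 51.3 in controls (SD, n = 3 each), a log2 change of -1.94 (SE 0.07, 95% interval -2.10 to -1.78; limma adjusted p = 1.22e-07), and only 4 of the 13335 genes fell further.

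Slc2a1, on chromosome 4, read 675, 597 and 751 with LPA, 597, 629 and 561 with HA155 and 603, 538 and 524 in controls. LPA array 8 lay below the highest control, so the groups overlapped. The mean was 674.3 ± 76.7 with LPA and 555.2 ± 42.0 in controls (SD, n = 3 each), a log2 change of 0.28 (SE 0.09, 95% interval 0.08 to 0.47; limma adjusted p = 0.0471). This call was lost in 10 of 18 alternative settings, 7 of which leave out an array, any one but control array 1 or LPA array 8 (adjusted p up to 0.155, log2 change 0.20 to 0.36).

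Set against each other on the same array, the log2 of Slc2a4 over Slc2a1 lay between -1.65 and -1.31 with LPA, between 0.64 and 0.98 with HA155 and between 0.63 and 0.92 in controls. No LPA array came near the others, and HA155 and control arrays covered the same range. The mean difference was -2.21 for LPA against control and -2.21 for LPA against HA155 (exact two-sided permutation p = 0.1 for each, adjusted 0.15 over 3 comparisons). An exact p of 0.1 is the smallest that 3 arrays against 3 can give. For HA155 against control the difference was 0.00 (exact p = 1).

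Start-site sequence was on hand for 6 of the 8 genes, from the RefSeq promoter table of build GRCm38.p6, which gives 250 bases before the start and 50 after it. Those of Slc2a1, the gene that rose, and of Tbc1d4, a falling gene with a single window, are shown because the genes changed in opposite directions. Slc2a1 lies at chr4:119108495-119108794 on the plus strand and Tbc1d4 at chr14:101609142-101609441 on the minus strand. Both run 5′ to 3′ along their gene, with capitals marking the motifs searched.
Slc2a1: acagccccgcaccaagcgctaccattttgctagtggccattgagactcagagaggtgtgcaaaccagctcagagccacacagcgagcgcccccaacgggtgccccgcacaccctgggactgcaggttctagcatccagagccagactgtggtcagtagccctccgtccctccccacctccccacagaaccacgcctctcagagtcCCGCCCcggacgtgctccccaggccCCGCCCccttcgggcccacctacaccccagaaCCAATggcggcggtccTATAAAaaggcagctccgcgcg
Tbc1d4: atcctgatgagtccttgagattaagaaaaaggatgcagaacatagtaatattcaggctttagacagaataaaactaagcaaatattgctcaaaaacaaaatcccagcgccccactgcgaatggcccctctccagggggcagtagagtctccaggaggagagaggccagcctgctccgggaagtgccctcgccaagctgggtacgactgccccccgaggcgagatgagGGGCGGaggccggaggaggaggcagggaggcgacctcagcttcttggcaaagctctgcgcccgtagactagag
The motifs searched, on both strands, were the GC box GGGCGG, the CCAAT box CCAAT, the TATA box TATAAA and the E-box CACGTG. The Slc2a1 window held 2 GC boxes, 1 CCAAT box and 1 TATA box, and the Tbc1d4 window 1 GC box. The GC boxes lay before the listed start. In Slc2a1 the CCAAT box (offset 12) and the TATA box (offset 28) lay after it. A GC box was in 35.7% of all 32851 promoters of the same length, a CCAAT box in 37.4%, a TATA box in 13.6% and the E-box in 7.15%. The E-box occurred once each in the windows of Irs1 and Irs2 and in no other window of the 6 genes. Insr and Slc2a4 had no window, and no link between motifs and changes was tested. These letters describe the windows and mark no site.

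With HA155 the 8 genes stayed close to control, with a median log2 change of 0.09 over a range of -0.07 to 0.15. At an unadjusted p below 0.05 there were 2, Insr and Akt2, where 8.11% of all genes were at that level. Akt2 averaged 2507.1 ± 54.5 with HA155 and 2256.7 ± 5.2 in controls (SD, n = 3 each), a log2 change of 0.15 (95% interval 0.02 to 0.28; limma adjusted p = 0.470, 0.0243 before adjustment). Insr averaged 865.5 ± 15.5 with HA155 and 780.4 ± 1.0 in controls (SD, n = 3 each), also 0.15 (95% interval 0.01 to 0.29; limma adjusted p = 0.577, 0.0401 before adjustment).

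Those values rest on control groups with repeated values, and neither passed the adjusted test. Insr, Akt2 and Tbc1d4 had all 3 HA155 arrays above all 3 controls, a separation in either direction that 16.8% of all genes showed. Tbc1d4 differed by 0.07 (95% interval -0.06 to 0.20; limma adjusted p = 0.902). For Slc2a4 the difference was 0.10 (95% interval -0.06 to 0.27; limma adjusted p = 0.863) and for Slc2a1 also 0.10 (-0.10 to 0.30; limma adjusted p = 0.909). Pik3r1 measured -0.04 (-0.19 to 0.12), Irs1 -0.06 (-0.25 to 0.13) and Irs2 -0.07 (-0.28 to 0.14), with limma adjusted p of 0.976, 0.954 and 0.951. Over all 8 genes these intervals stayed within -0.28 and 0.30.

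**Figure D2:**
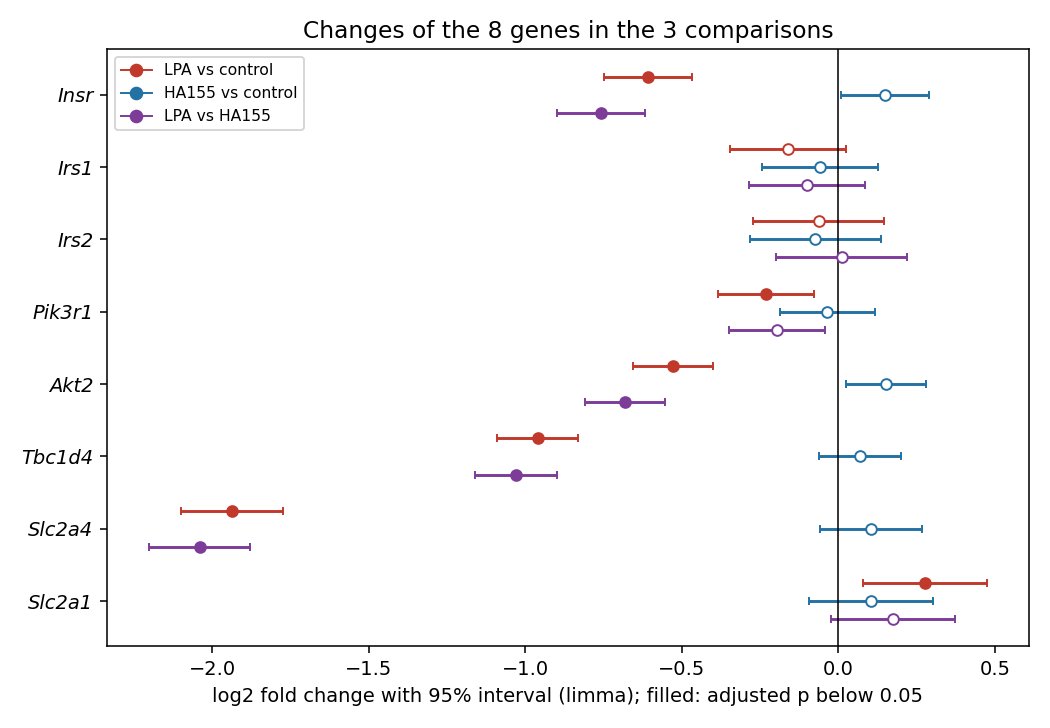
Log2 change of the 8 genes with LPA against control (upper point of each gene), HA155 against control (middle) and LPA against HA155 (lower), with points for limma's estimates (filled where the adjusted p is below 0.05) and bars for 95% intervals. For HA155 against control the intervals lie within -0.28 to 0.30, while Slc2a4 stands at -1.94 for LPA against control and -2.04 for LPA against HA155.

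LPA and HA155 act on opposite sides of the same signal, one as the product and one as an inhibitor of its synthesis, and they were given at different doses, so the groups are set side by side as cultures. Between them 4 of the 8 genes were lower with LPA, none was higher and 4 did not pass, where 26.1% of all genes passed (13.7% higher, 12.4% lower). At an unadjusted p below 0.05 there were 5 of the 8, and 35.6% of all genes. The comparison shares its LPA arrays with the one above. Slc2a4 averaged 250.0 ± 17.2 with LPA and 1028.2 ± 67.7 with HA155 (SD, n = 3 each), a log2 change of -2.04 (95% interval -2.20 to -1.88; limma adjusted p = 3.06e-08) and 4.11-fold lower. Tbc1d4 averaged 141.2 ± 7.7 with LPA and 288.2 ± 8.3 with HA155, a change of -1.03 (-1.16 to -0.90; limma adjusted p = 4.41e-07).

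Insr changed by -0.76 (95% interval -0.90 to -0.62; limma adjusted p = 7.57e-06) and Akt2 by -0.68 (-0.81 to -0.55; limma adjusted p = 8.12e-06). Their intervals against HA155 were centred lower than those against control, since both read higher with HA155 than in controls. Pik3r1 did not overlap between the groups, a separation in either direction that 38.7% of all genes showed. It missed the threshold at -0.20 (-0.35 to -0.04; limma adjusted p = 0.0598), and without LPA array 8 it passed at -0.27 (adjusted p = 0.00461). Slc2a1 measured 0.17 (-0.02 to 0.37; limma adjusted p = 0.196), and without the same array 0.26 (adjusted p = 0.0435). Irs1 measured -0.10 (-0.29 to 0.08) and Irs2 0.01 (-0.20 to 0.22), with limma adjusted p of 0.442 and 0.955.

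The rest of the pathway was followed in a list of 128 genes by role, the 8 included, of which 107 were bright enough to test. With LPA 45 of them passed against control, 32 lower and 13 higher, or 42.1% beside 23.0% of all genes. Without the 8 genes it was 39 of 99, or 39.4%, with 27 lower and 12 higher. The median change of the 107 was -0.04, beside 0.01 over all genes tested. The list was put together with results of these data known, so its share describes these cultures and is no independent evidence.

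**Figure D3:**
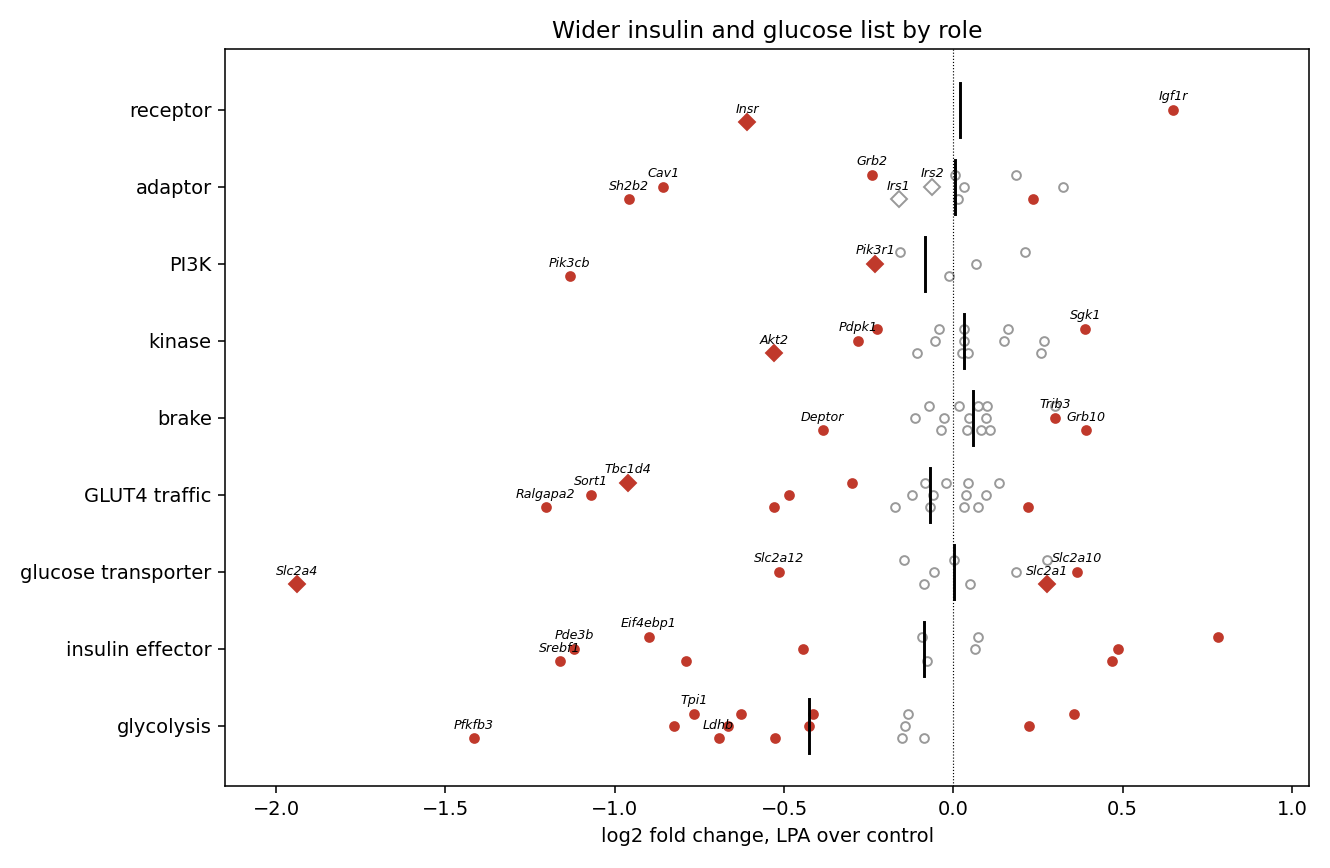
Log2 change of each tested gene of the pathway list in LPA against control, by role, filled where limma's adjusted p is below 0.05, with diamonds for the 8 genes and upright bars for role medians. Glycolysis has the lowest median, -0.43, with 9 of 15 genes lower, and the medians of all other roles lie between -0.09 and 0.06.

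At the receptor, Igf1r, which encodes the receptor for the related growth factor IGF1, went the other way from Insr. It read 299.5, 420.1 and 337 with LPA, 222, 244 and 204 with HA155 and 244, 206 and 219 in controls, with no overlap between LPA and the rest. Its log2 change was 0.65 (limma adjusted p = 0.00216). Of 11 adaptor genes 3 fell and 1 rose (36.4% passed, beside 23.0% of all genes). The falling ones were Sh2b2, an adaptor that binds the activated receptor (-0.96, adjusted p = 9.32e-05), Cav1, the caveolar coat protein (-0.86, adjusted p = 6.02e-06), and Grb2, a link to the Ras pathway (-0.24, adjusted p = 0.0183). Grb2 lost its call without control array 3 (-0.20, adjusted p = 0.0730) and with array weights (-0.23, adjusted p = 0.0553). The rising one was Shc1, an adaptor towards the Ras pathway (0.23, adjusted p = 0.0361), whose call was lost in 9 of 18 alternative settings. Those were no filter, only the groups compared, array weights, and leaving out control array 2 or 3, HA155 array 4 or 5 or LPA array 8 or 9 (adjusted p up to 0.119).

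Among 6 genes of phosphoinositide 3-kinase, Pik3cb fell beside Pik3r1 (33.3% passed, beside 23.0% of all genes). Pik3cb, the catalytic subunit p110 beta, read 105, 108 and 119 with LPA, 275, 223 and 227 with HA155 and 259.8, 252 and 218 in controls, a log2 change against control of -1.13 (limma adjusted p = 1.2e-05). Pik3ca, the catalytic subunit p110 alpha, read 520.2, 628 and 564 with LPA, 529.7, 534 and 499.8 with HA155 and 529.7, 467 and 480.0 in controls, and its change of 0.21 did not pass (limma adjusted p = 0.0791). Pik3ca did pass without control array 1 (0.27, adjusted p = 0.0487) and without LPA array 7 (0.28, adjusted p = 0.0305).

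Of 15 kinase genes 3 fell and 1 rose, so that 26.7% passed, a share near the 23.0% of all genes. Sgk1, a kinase related to Akt, rose by 0.39 (limma adjusted p = 0.00472). Beside Akt2, the falling ones were Pdpk1, the kinase that activates Akt (-0.28, adjusted p = 0.0332), and Mtor (-0.23, adjusted p = 0.0352). Each call was lost in 10 of 18 alternative settings, among them no filter and only the groups compared. Leaving out most single arrays also lost both, any but LPA array 9 for Pdpk1 and any but LPA array 8 for Mtor (adjusted p up to 0.0943 and 0.0916). Akt1, the other Akt form with a value here, read 1340.1, 1394 and 1468 with LPA, 1175, 1185 and 1118 with HA155 and 1242, 1190.3 and 1328 in controls. Its change of 0.16 against control did not pass (limma adjusted p = 0.0974), though it did with quantile normalization again (0.18, adjusted p = 0.0421), and against HA155 it was higher with LPA by 0.27 (adjusted p = 0.00808). Akt2 and Akt1 thus stood on opposite sides of HA155 in the LPA arrays.

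Of 16 genes that brake insulin signalling 2 rose and 1 fell, so that 18.8% passed, no more than the 23.0% of all genes. Grb10, an adaptor that blocks the receptor, rose by 0.39 (limma adjusted p = 0.0027), and Trib3, a pseudokinase that binds Akt, by 0.30 (adjusted p = 0.0145). Trib3 lost its call without control array 1 (0.25, adjusted p = 0.0551) and with array weights (0.26, adjusted p = 0.0535). Deptor, an inhibitor of mTOR, fell by 0.39 (adjusted p = 0.00166).

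GLUT4 traffic genes fell in 6 of 19 cases and rose in 1 (36.8% passed, beside 23.0% of all genes). Ralgapa2, part of a GTPase-activating complex that Akt phosphorylates, read 237, 276 and 265 with LPA, 659, 561 and 605 with HA155 and 620.4, 589.5 and 581 in controls (log2 change against control -1.20, limma adjusted p = 1.86e-06). Sort1, the sorting receptor sortilin of GLUT4 vesicles, read 643, 681 and 704 with LPA, 1598, 1385 and 1511 with HA155 and 1397, 1473 and 1387 in controls (-1.07, limma adjusted p = 1.59e-06). Ehd2, a membrane-shaping ATPase of caveolae, changed by -0.53 (adjusted p = 3.22e-05). The 1 gene that rose was Tbc1d1, a close relative of Tbc1d4 (0.22, adjusted p = 0.0412). Tbc1d1 lost its call in 13 of 18 alternative settings, 8 of which leave out an array, any one but control array 3 (adjusted p up to 0.160).

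Of 11 glucose transporter genes tested 2 rose and 2 fell (36.4% passed, beside 23.0% of all genes). Beside Slc2a4 and Slc2a1, Slc2a10 rose by 0.37 (limma adjusted p = 0.00909) and Slc2a12 changed by -0.52 (adjusted p = 0.0171). Slc2a12 lost its call without LPA array 8 (-0.47, adjusted p = 0.0549).

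Effectors of insulin and glucose moved in both directions, 5 of 12 lower and 3 higher (66.7% passed, beside 23.0% of all genes). Pde3b, the phosphodiesterase through which insulin curbs lipolysis, read 371, 366 and 399.6 with LPA, 1007, 954 and 1029 with HA155 and 817, 817 and 833 in controls (log2 change -1.12, limma adjusted p = 4.46e-07). Srebf1, the lipogenic transcription factor, changed by -1.16 (adjusted p = 1.59e-06), and Eif4ebp1, the translation repressor controlled by mTOR, by -0.90 (adjusted p = 4.8e-06). Foxo1, which Akt keeps out of the nucleus, changed by -0.45 (adjusted p = 0.00353) and Mlxipl, the glucose-sensing factor ChREBP, by -0.79 (adjusted p = 1.73e-05).

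Txnip and Arrdc4, related arrestin-domain genes whose products restrain glucose uptake, rose. Txnip read 2556, 2833 and 2759 with LPA, 1565, 1649 and 1646 with HA155 and 1934, 1916 and 1957 in controls, so the 3 groups did not overlap. Its change against control was 0.49 with LPA (limma adjusted p = 0.000126) and -0.26 with HA155 (unadjusted p = 0.00113, adjusted p = 0.0845). Arrdc4 rose by 0.47 with LPA (adjusted p = 0.00101), as did Egr2, an early growth response transcription factor, by 0.78 (adjusted p = 0.000438).

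Glycolysis had 9 of 15 genes lower with LPA and 2 higher (73.3% passed, beside 23.0% of all genes), with a median change of -0.43. Pfkfb3, which makes the activator of phosphofructokinase, read 380.0, 382 and 402 with LPA, 1056, 954 and 988 with HA155 and 1060.0, 1017 and 1029 in controls (log2 change -1.42, limma adjusted p = 1.93e-07). Tpi1 changed by -0.77 (adjusted p = 1.99e-05) and Ldhb by -0.69 (adjusted p = 2.72e-05). Hexokinases trap glucose in the cell. Hk2, the insulin-responsive form, read 323, 267 and 312 with LPA, 560.0, 508 and 541 with HA155 and 495, 478 and 454 in controls (-0.66, adjusted p = 0.000115). Hk1 read 7148, 7607 and 7228 with LPA, 6616, 6682 and 6583 with HA155 and 6049, 6431 and 6351 in controls (0.22, adjusted p = 0.0125). Hk1 lost its call with quantile normalization again (0.18, adjusted p = 0.0555). The other gene that rose was Eno3, an enolase known from muscle (0.36, adjusted p = 0.00415).

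**Figure D4:**
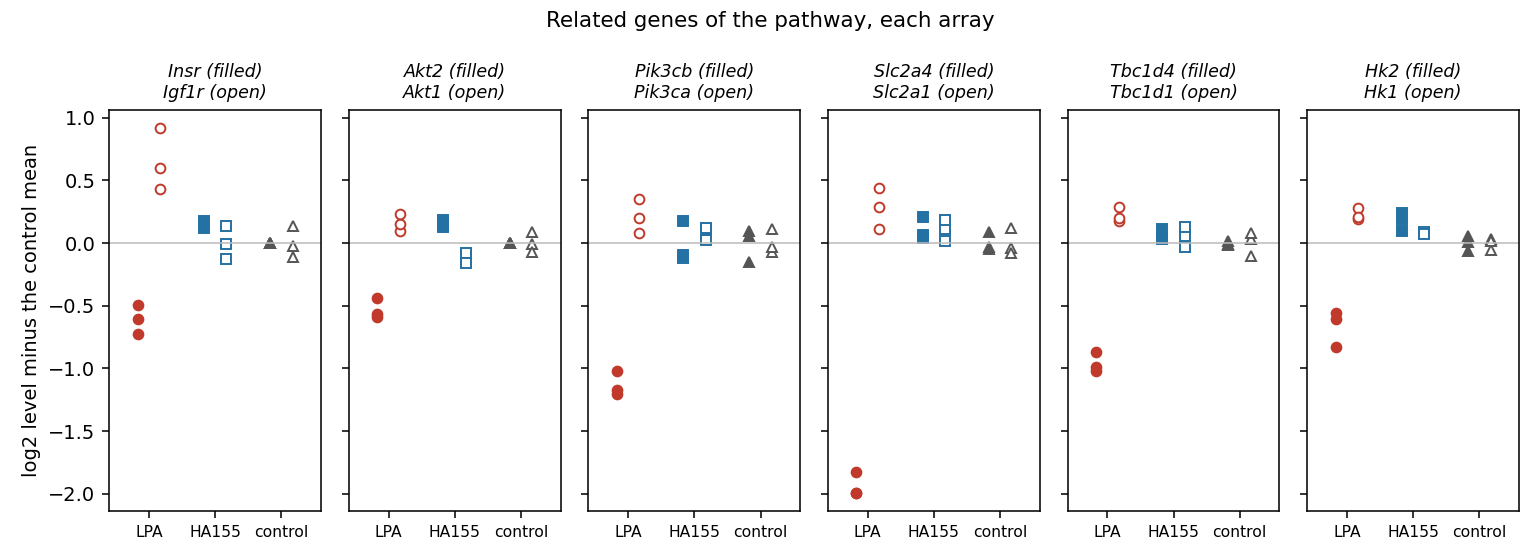
Log2 intensity minus the control mean on each array for 6 pairs of related genes, 1 filled and 1 open in each panel. The mean change with LPA was -0.61 for Insr, -0.53 for Akt2, -1.13 for Pik3cb, -1.94 for Slc2a4, -0.96 for Tbc1d4 and -0.66 for Hk2, and 0.65 for Igf1r, 0.28 for Slc2a1, 0.22 for Tbc1d1, 0.22 for Hk1, 0.21 for Pik3ca and 0.16 for Akt1, the last 2 not past the test.

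The pairing of these related genes was chosen after their values were seen, as were, as names against control, Akt1, Pik3ca, Shc1, Mtor, Txnip, Arrdc4, Egr2, Hk1, Hk2, Eno3, Foxo1, Mlxipl, Tbc1d1, Trarg1 and Ehd2. The differences within pairs were not tested except for Slc2a4 and Slc2a1.

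With HA155, 1 of the 107 genes passed against control, or 0.935% beside 1.03% of all genes, and none was lower. Trarg1, a membrane protein of GLUT4 vesicles, read 562, 566 and 616 with HA155 and 380.3, 391.6 and 405 in controls, a log2 change of 0.57 (SE 0.08, 95% interval 0.39 to 0.74; limma adjusted p = 0.00677). The LPA arrays read 307, 251 and 285, so Trarg1 was also lower with LPA than in controls (-0.49, adjusted p = 0.000901) and the 3 groups did not overlap. Pde3b changed by 0.28 with HA155 and did not pass (unadjusted p = 0.000677, adjusted p = 0.0610).

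Against HA155, LPA had 33 of the 107 genes lower and 12 higher, again 42.1% beside 26.1% of all genes. Glycolysis fell in 11 of 15 genes with a median of -0.53, with Pfkfb3 at -1.36 (limma adjusted p = 8.0e-08), Hk2 at -0.84 (1.72e-05) and Pgam1 at -0.60 (1.02e-05). GLUT4 traffic fell in 7 of 19, with Ralgapa2 at -1.23 (8.77e-07) and Sort1 at -1.15 (5.3e-07). Pde3b was lower by a log2 change of -1.40 (6.38e-08), Eif4ebp1 measured -0.86 (3.72e-06) and Srebf1 -0.96 (3.77e-06).

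Igf1r stood 0.65 higher with LPA than with HA155 (limma adjusted p = 0.00184), Sgk1 0.52 (0.000659), Gab1, a docking adaptor, 0.38 (0.0101), Slc2a10 0.36 (0.00836) and Grb10 0.33 (0.00602). Cav1 measured -0.83 (4.81e-06), Sh2b2 -0.82 (0.000219), Pik3cb -1.12 (8.63e-06) and Deptor -0.34 (0.00319). Trib3 passed at 0.25 (0.0303), but lost its call in 7 of 18 alternative settings (adjusted p from 0.0502 to 0.136). Those were no filter, array weights, quantile normalization again, and leaving out HA155 array 4 or 6 or LPA array 8 or 9.

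For the 4 genes that passed limma's F test over the 3 groups, the closest profiles across the 9 arrays were sought by the root mean square difference of log2 values centred on each gene's mean. Slc2a4 had Adig (0.08), Gpd1 (0.09) and Retn (0.10) nearest, all adipocyte markers. Tbc1d4 had Taldo1 (0.04), Cyc1 (0.04) and Apmap (0.05). Insr had Ahcyl2 (0.05), Gfm1 (0.05) and Ppif (0.05), and Akt2 had Agpat3 (0.03), Dhx32 (0.04) and Hadha (0.04). A smaller value means a closer profile.

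Adipocyte markers fell with LPA, as 5 of the 8 insulin genes did against control. All 14 tested fell with LPA against control, at a median of -1.32 on the log2 scale, and against HA155 the same count fell (median -1.54). Among all genes 10.8% were lower and 12.2% higher with LPA against control. Against HA155 these shares were 12.4% lower and 13.7% higher. The summed intensity of the adipocyte markers was 29016 to 29974 with LPA, 57871 to 60472 with HA155 and 55558 to 57458 in controls. Of 9 preadipocyte markers 6 rose with LPA against control (median 0.29) and 9 against HA155 (median 0.51), with sums of 32946 to 36395 with LPA, 23399 to 25775 with HA155 and 26094 to 27692 in controls. Brown markers, 6 of 10 bright enough, fell in 3 cases (Ppargc1a, Cox7a1 and Cox8b) and rose in 1 (Zic1) with LPA, and summed to 1061 to 1225 with LPA, 2569 to 2718 with HA155 and 1740 to 1808 in controls. With HA155 against control, 0.607% of all genes were higher and 0.427% lower. Of the 6 brown markers 2 rose with HA155 (median 0.07), Cox7a1 and Cox8b by 1.13 and 1.01 (limma adjusted p = 8.96e-06 and 0.000609). All 3 control arrays hold the same value for Cox7a1, which understates the spread of that group. Of the 14 adipocyte markers 2 rose with HA155 (median 0.04), Cidec and Cd36 by 0.65 and 0.31 (adjusted p = 0.000756 and 0.0485). Of the 9 preadipocyte markers 1 fell (median -0.15), Dlk1 by 0.82 (adjusted p = 0.000609). The other markers of these lists did not pass, and none of the 8 insulin genes did.

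Skeletal muscle, a tissue that also uses Slc2a4, had 7 of 12 markers higher with LPA against control (median 0.40), where 12.2% of all genes were higher. Myod1, Myog, Pax7, Ckm and Tnni2 did not pass. The sums of the muscle markers were 2039 to 2391 with LPA, 1556 to 1689 with HA155 and 1534 to 1618 in controls. With HA155 against control 1 of the 12 rose, Myh1, a muscle myosin, by 0.64 (limma adjusted p = 0.00695). With LPA against control 23.0% of all genes passed in limma. Macrophage markers passed there in 0 of 5 cases (median -0.01), with Adgre1, Mrc1 and Itgam below the level. Their sums were 585 to 893 with LPA, 793 to 949 with HA155 and 608 to 709 in controls. Endothelial markers rose in 1 of 5, Tek (median -0.02), with Pecam1, Kdr and Emcn below the level. Their sums were 555 to 586 with LPA, 495 to 529 with HA155 and 516 to 548 in controls. In bulk RNA, fewer adipocytes and less RNA per adipocyte cannot be told apart, and the part of the markers in the insulin-gene changes was not tested.

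Set against the mean of the adipocyte markers on the same array, Slc2a4 was still lower with LPA, by a log2 difference from control of -0.69 (-0.77 to -0.57 over the 3 LPA arrays). The others stood above that mean, Tbc1d4 by 0.29 (0.25 to 0.35), Insr by 0.64, Akt2 by 0.72, Pik3r1 by 1.02, Irs1 by 1.09, Irs2 by 1.19 and Slc2a1 by 1.52. These differences from the marker mean were not tested. Single markers covered a wide range, with Retn at -1.95, Cidec at -1.88, Lipe at -1.50, Adipoq at -1.35, Fabp4 at -0.65, Pparg at -0.46 and Lpl at -0.39, so Slc2a4 lay at the low end of their range and Insr and Akt2 near the high end.

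**Figure D5:**
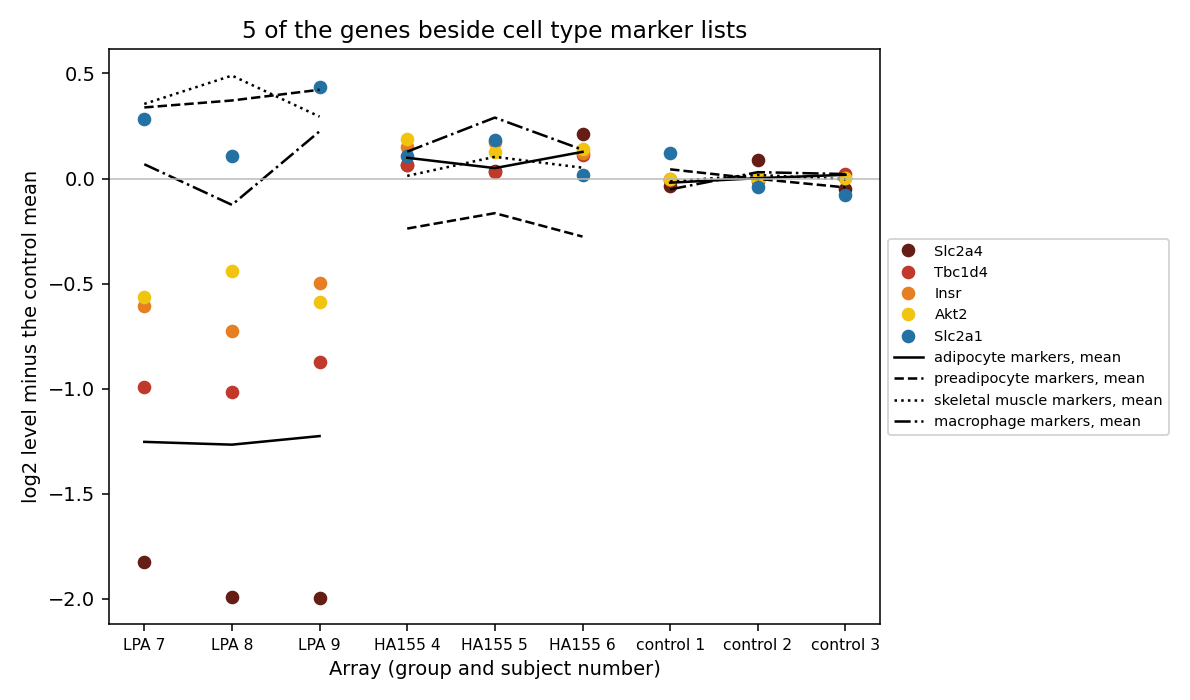
Log2 intensity minus the control mean on each of the 9 arrays for 5 of the genes (points), beside the mean of the tested adipocyte, preadipocyte, skeletal muscle and macrophage markers on the same scale (lines). On the LPA arrays the adipocyte mean averaged -1.25, with Slc2a4 below it and Tbc1d4, Insr, Akt2 and Slc2a1 above it.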

How the data were processed

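Total RNA of 9 primary brown fat cultures, 3 per group, was hybridised to Affymetrix mouse gene arrays, per the labels' protocols. The authors deposited 1 intensity per probe set and array. Per the submitters' processing notes RMA produced them (version not given in the sources). RMA makes the arrays' distributions alike and compresses changes of dim and very bright probe sets. RMA itself writes log2 values, whereas the deposited ones range as linear values do, and the step between is not given.

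The platform annotation gave 21706 of the 35432 probe sets a single gene symbol and 1605 several (not used), and 12121 are unnamed here. The brightest probe set stood for each of 19858 genes. A mean level below the 40th percentile of probe sets (log2 5.59, intensity 48.2) removed 6523 genes and left 13335.

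Log2 intensities of all 9 arrays in 3 groups were fitted without covariates (R 4.3.3, limma 3.58.1, functions lmFit and eBayes), two-sided, with Benjamini-Hochberg adjustment at 0.05 over all genes tested within a comparison. Log2 ratios of 2 genes were compared with exact permutation tests. The scripts were tested on simulated data. Subject numbers differ between groups, so nothing was paired. The labels name no batch, and one that follows the groups could not be separated from treatment. The most alike arrays shared 2649 of 35432 values, and such ties understate the spread of those genes.

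The 8 genes and all lists were chosen with earlier results of these data known. Named from the pathway list were, per role and comparison, the up to 3 genes of smallest p that passed, and for each of the 8 genes that differed over the groups (limma F test) the 3 nearest profiles. Genes of the pathway list with no single-gene probe set were not analysed here.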

Additional observations from a re-analysis of the deposited data

How the results depend on the processing

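There were 18 alternative settings: no filter on level or the 60th percentile, only the groups compared, eBayes with trend and robust, array weights, quantile normalization again, arrays centred on medians, 32 added before log2, the mean of a gene's probe sets, and each array left out in turn. In all 18, Insr, Akt2, Tbc1d4 and Slc2a4 kept their direction and call in both comparisons of LPA, and none of the 8 genes passed for HA155 against control. The number of the 8 that passed ran from 4 to 7 for LPA against control and from 4 to 6 for LPA against HA155. Over all genes, of which the settings tested 9304 to 19858, 2293 to 3224 passed for LPA against control. For LPA against HA155 these were 2588 to 3583. Irs1 passed against control with array weights (adjusted p = 0.0481) and with the mean of probe sets (0.0260), both limma, beside leaving out LPA array 8. Pik3r1 passed against HA155 in 6 of 18 settings and Slc2a1 in 1.

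Of the pathway list, 39 to 46 genes passed for LPA against control and 38 to 49 for LPA against HA155. For HA155 against control 1 gene passed in the main setting, 2 at the 60th percentile, 5 with array weights, and 3 each with only the groups compared, trend and robust, quantile normalization again and 32 added. Leaving out an array gave 1 to 3, with 3 without LPA array 8 and 2 without LPA array 9. Trarg1 passed in all 18 (highest limma adjusted p = 0.0474), Pde3b in 8 and Txnip in 6. Over all genes, 138 passed for HA155 against control, 338 with array weights, 206 with only the groups compared, 86 with no filter and 39 to 232 with an array left out.

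Small changes turned sign. Irs2 ran from -0.118 to 0.0371 for LPA against control with an array left out. Against HA155 it measured -0.0626 with array weights, -0.0267 with quantile normalization again, -0.0131 with centred arrays and -0.0400 to 0.11 with an array left out. The Slc2a4 over Slc2a1 ratio ran from -0.0953 to 0.0739 for HA155 against control, and Irs1 over Irs2 from -0.0686 to 0.0856 and measured -0.16 with the mean of probe sets. The cause was not tested. No paired analysis was possible because the groups share no subject numbers. No detection calls were used, so levels near the filter are close to background.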

Other observations

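The LPA cultures varied more among themselves than the others did, over all genes as well as in these 8. Control arrays 1 and 2 hold the same value for Insr and for Akt2, which understates the control SD of these genes. The SD of log2 values was larger on the LPA arrays than on the HA155 arrays in 8 of the 8 genes and larger than on the control arrays in 8 of the 8, where 75.1% and 63.5% of all genes tested had the larger SD with LPA. Over all genes the median SD was 0.107 with LPA, 0.054 with HA155 and 0.074 in controls (n = 3 each).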
